A study of Mus musculus with 20 samples.

Results

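The genes described here are Ahr, Ahrr, Arnt, Arnt2, Ptges3, Hsp90ab1 and Tiparp, which together encode the aryl hydrocarbon receptor (AhR), part of its chaperone complex, its dimerization partners and its feedback repressors. They were taken by name, as the complex with its partners and feedback repressors, with earlier results of these data known, and all 7 were found among the 78258 gene identifiers of the count table and passed the filter on low counts with the 28564 genes tested. RNA was measured by bulk mRNA sequencing of dorsal root ganglia (DRG, which house the cell bodies of sensory neurons) of lumbar levels 4 to 6 from 10 male mice. The conditional knockout (cKO) mice were Ahr fl/fl with Thy1CRE-ERT2/EYFP, a tamoxifen-activated Cre recombinase and a fluorescent protein driven by the Thy1 promoter, which is active mainly in neurons. Control mice were Ahr f/f or f/+ by the protocol. The names of all control libraries carry ff and their titles say Wildtype, so the labels do not settle which mouse carried which. Both genotypes received tamoxifen (100 mg/kg i.p., daily on 5 days) when 17 weeks old. Transection of the sciatic nerve followed after 4 weeks, and ganglia were collected 1 day after the lesion, 2 to 4 hours after lights on. Each mouse gave 1 contralateral and 1 ipsilateral library, so there were 4 groups of 5 libraries. The contralateral ganglia came from lesioned mice and were not naive. A label field names a spinal cord injury where the treatment text describes the sciatic lesion, and the latter was followed.

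AhR is a ligand-activated transcription factor of the bHLH-PAS family. Without ligand it waits in the cytosol in a complex with HSP90 and the co-chaperone p23 (encoded by Ptges3). Ligands, among them dietary indoles, tryptophan metabolites and environmental pollutants, send it to the nucleus, where it pairs with ARNT or ARNT2 and binds xenobiotic response elements (XREs). Among the genes it activates are its own brakes, the AhR repressor gene Ahrr and Tiparp, whose product attaches ADP-ribose to AhR and promotes its loss.

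Promoter windows are shown for Ahrr and Tiparp, the feedback arm, and for Arnt, the shared partner. The expression results below do not use the AhR binding letters in them. RefSeq windows of 300 bases, 250 before and 50 after the annotated start (build GRCm38.p6), were at hand for 5 of the genes, Ahrr, Arnt, Arnt2, Ptges3 and Tiparp. Capitals mark the XRE core GCGTG on either strand and, in Arnt, also the cyclic AMP response element TGACGTCA. The windows lie at chr13:74292282-74292581 on the minus strand (Ahrr), chr3:65528197-65528496 on the plus strand (Tiparp) and chr3:95434140-95434439 on the plus strand (Arnt), and each is written 5′ to 3′ on the strand of its gene.
Ahrr: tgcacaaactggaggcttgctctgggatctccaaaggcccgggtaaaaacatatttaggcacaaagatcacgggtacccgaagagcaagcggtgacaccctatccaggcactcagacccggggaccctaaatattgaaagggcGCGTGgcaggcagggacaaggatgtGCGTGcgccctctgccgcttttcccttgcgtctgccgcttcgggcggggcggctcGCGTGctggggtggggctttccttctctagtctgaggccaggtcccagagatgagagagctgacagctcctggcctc
Tiparp: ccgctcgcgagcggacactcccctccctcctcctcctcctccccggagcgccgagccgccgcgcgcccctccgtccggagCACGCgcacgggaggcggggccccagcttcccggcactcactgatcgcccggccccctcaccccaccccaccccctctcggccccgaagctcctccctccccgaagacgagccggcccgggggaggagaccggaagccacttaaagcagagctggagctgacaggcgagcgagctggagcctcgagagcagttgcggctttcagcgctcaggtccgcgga
Arnt: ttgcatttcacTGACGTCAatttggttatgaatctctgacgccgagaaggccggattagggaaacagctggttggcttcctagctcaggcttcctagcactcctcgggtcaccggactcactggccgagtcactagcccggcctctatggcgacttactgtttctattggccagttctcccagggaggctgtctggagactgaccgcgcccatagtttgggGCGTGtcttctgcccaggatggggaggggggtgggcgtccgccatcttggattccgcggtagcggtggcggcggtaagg
The Ahrr window held 3 XRE cores, starting -107, -82 and -27 bases from the annotated start, and the last of them was also the only match among the 5 windows to the longer form TNGCGTG, which contains the core. Tiparp and Arnt had 1 core each, Ptges3 had 2, and Arnt2 had 0. For scale, the core was in 32.4% of all 32851 windows and the longer form in 5.07%. The cyclic AMP response element was in 1.79% of all windows and, of the 5, in that of Arnt alone. The AP-1 letters TGANTCA, the site of injury-induced Jun and Fos proteins, were in 7.81% of all windows and in 0 of the 5. All searches covered both strands, and a match of letters shows neither binding nor use.

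Libraries held 76.2 to 119 M counts (M, mega). In cKO mice the sides did not overlap in depth, with 76.2 to 87.2 M contralaterally and 87.5 to 119 M ipsilaterally. In control mice they overlapped, with 82.2 to 117 M and 79.1 to 103 M. The part of depth in the results was not tested. Values per library are CPM, counts normalised to library size and scaled by the trimmed mean of M-values (TMM), calls are genes with an adjusted p under 0.05 in edgeR's quasi-likelihood F-test, and SE is the standard error of a log2 fold change. Summed levels of cell type markers are CPM without the TMM scaling. The lesion was visible in the libraries: 6 of 6 injury genes fixed as a check (Atf3, Sprr1a, Sox11, Gal, Jun and Gap43) were called higher on the ipsilateral side in both genotypes, with a log2 fold change of 5.23 for Atf3 in control and 5.50 in cKO mice. All 12 markers of sensory neurons, the labelled tissue's defining cells, were detected, with a summed level of 7867 to 9068 CPM, and markers of 9 other cell types, from satellite glia to muscle, were detected too. Fewer cells of a type and less RNA per cell cannot be told apart in such bulk samples. The 6 fibroblast markers summed to 665 to 1213 CPM in control contralateral, 744 to 1331 in control ipsilateral, 783 to 1795 in cKO contralateral and 723 to 1262 in cKO ipsilateral libraries. A fit with the score of the fibroblast markers as a covariate was made as an alternative, and its values are given where they change a result.

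The 7 genes spanned more than 3 orders of magnitude per unit of length. Per kilobase of merged exon, the control contralateral means were 522 CPM for Hsp90ab1, 58.1 for Ptges3, 10.1 for Arnt2, 9.14 for Tiparp, 3.93 for Ahr, 2.43 for Arnt and 0.373 for Ahrr. The order of the means was the same in all 4 groups. Neighbours in this order had ranges over libraries that did not overlap, with 1 exception: Arnt2 and Tiparp in control contralateral libraries, whose means differed by a factor of 1.11. The chaperone genes thus stood above the receptor, and the repressor gene Ahrr stood lowest, with 222 to 432 counts per library against 113738 to 175989 for Hsp90ab1.

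**Figure D1:**
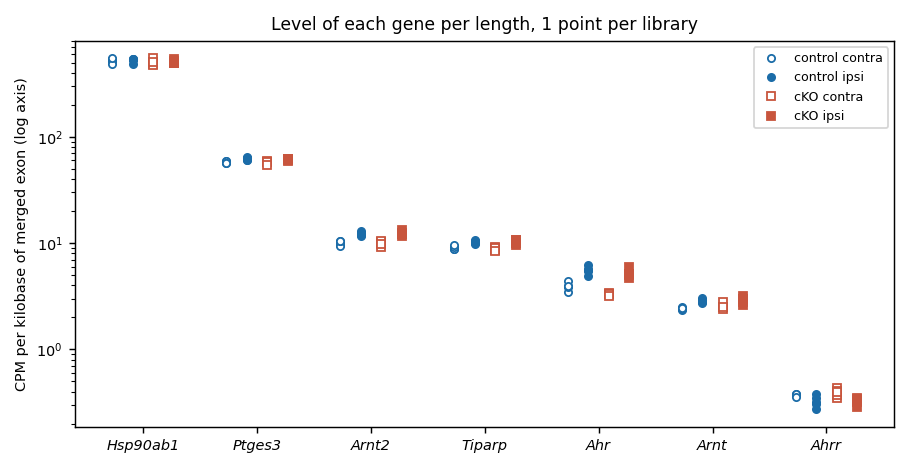
Level of each gene in CPM per kilobase of merged exon (log axis), 1 point per library, with circles for control, squares for cKO, open symbols for contralateral and filled symbols for ipsilateral libraries. Hsp90ab1 stands highest and Ahrr lowest, below 1 CPM per kilobase, in every library, and Arnt2 lies above Arnt in all 4 groups.

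Nerve transection was followed by more mRNA of the receptor, of both partners, of the co-chaperone p23 and of Tiparp, while the main chaperone gene Hsp90ab1 had overlapping sides and Ahrr was lower, past the threshold in cKO mice. The injury comparison in control mice called 5 of the 7 genes higher and 0 lower, where 29.9% of all tested genes were called, 13.8% higher and 16.0% lower. The cKO comparison called 5 of 7 higher (the same genes) and Ahrr lower, where 31.3% of all genes were called, 16.2% higher and 15.1% lower. The ranges of both sides lay apart for 5 of 7 genes in control mice (23.6% of all genes) and for 5 of 7 in cKO mice (20.2% of all genes). The median log2 fold change of the 7 was 0.16 in control and 0.18 in cKO mice, against 0.00 and -0.03 over all genes.

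Cell type markers moved in the same comparisons. Of the 12 sensory neuron markers, 5 were called lower in control and 3 in cKO mice, and 0 higher, with a median log2 fold change of -0.06 in each and summed levels of 8433 to 9068 (control contralateral), 8115 to 8621 (control ipsilateral), 8198 to 9062 (cKO contralateral) and 7867 to 8344 CPM (cKO ipsilateral). Of the 6 satellite glia markers, 2 were called higher in each genotype, with medians of 0.13 and -0.02 and sums, in the same order of groups, of 1604 to 1698, 1764 to 1956, 1568 to 1968 and 1664 to 1861 CPM. In control mice all 8 macrophage markers (1 called, median 0.46), all 6 endothelial markers (2 called, median 0.39) and all 6 neutrophil, fibroblast and muscle markers each (0 called, medians 0.58, 0.32 and 0.48) were above zero. In cKO mice 6 of 8 macrophage, 3 of 6 endothelial, 2 of 6 neutrophil, 1 of 6 fibroblast (1 called lower) and 0 of 6 muscle markers were above zero. Lymphocyte markers were above zero in 1 of 8 cases in each genotype (medians -0.35 and -0.44), erythroid markers in 4 of 5 in control (0.03) and 0 of 5 in cKO mice (-0.41), and Schwann cell markers in 6 of 8 (0.08) and 5 of 8 (0.02), with 0 called in these lists. No marker of these lists was at 0 in all libraries. The part of these cell types in the changes of the 7 genes was not tested.

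**Figure D2:**
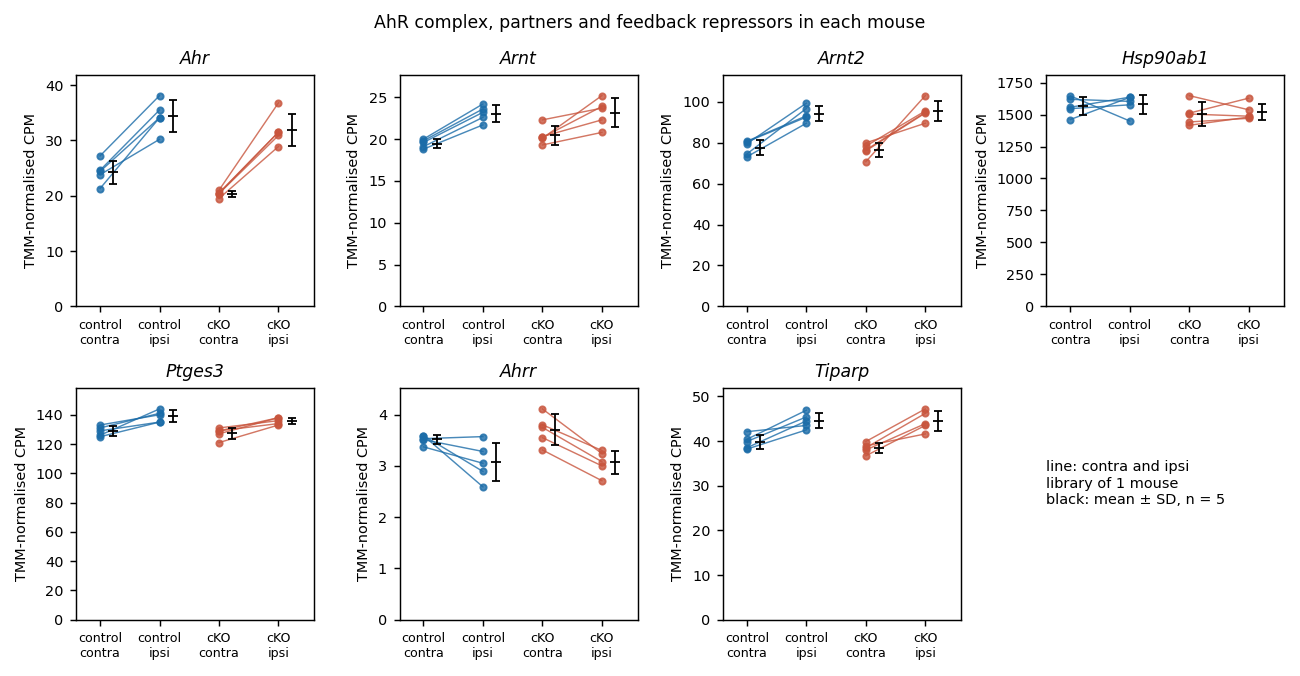
TMM-normalised CPM of the 7 genes in each of the 20 libraries. Each line joins the contralateral and ipsilateral library of 1 mouse (blue control, red cKO), and black bars are the group mean ± SD (n = 5). The lines of Ahr, Arnt, Arnt2, Ptges3 and Tiparp rise in all 10 mice, and those of Ahrr fall in 9 of 10.

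Ahr (ENSMUSG00000019256.18), the receptor gene on chromosome 12, held 21.3, 24.6, 23.8, 27.2 and 24.4 CPM in the contralateral libraries of control mice H62, H63, H65, H96 and H97. Their ipsilateral libraries held 34.1, 35.5, 30.2, 38.1 and 34.1 CPM. Every ipsilateral value was above every contralateral one, and all 5 mice rose. The group means were 24.2 ± 2.10 and 34.4 ± 2.86 CPM (SD, n = 5), a log2 fold change of 0.50 (SE 0.0658, 95% interval 0.37 to 0.64, adjusted p = 4.7e-06 by edgeR). In the cKO mice H61, H64, H95, H99 and H100, the contralateral libraries held 20.4, 21.0, 20.5, 20.4 and 19.5 CPM, and the ipsilateral ones 31.5, 36.8, 31.5, 30.9 and 28.9 CPM. These cKO groups did not overlap either. Their means were 20.4 ± 0.536 and 31.9 ± 2.94 CPM, a log2 fold change of 0.65 (SE 0.0661, 95% interval 0.51 to 0.79, adjusted p = 1.45e-07 by edgeR). Of the 7 genes, Ahr had the highest injury fold change in each genotype, at the 91.8th percentile of all tested genes in control and the 94.9th in cKO mice.

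Arnt2, the partner gene that is richest in neurons, rose by 21.4% in control and by 25.2% in cKO mice. Contralateral control libraries held 74.5, 79.5, 73.1, 80.4 and 80.7 CPM, and ipsilateral ones 96.7, 99.3, 89.5, 92.5 and 93.1 CPM, in the mouse order given for Ahr. The sides did not overlap, and the log2 fold change was 0.28 (SE 0.0409, adjusted p = 1.9e-05 by edgeR). In cKO mice the contralateral values of 76.4, 70.7, 78.3, 79.9 and 76.0 CPM were again all below the ipsilateral values of 94.8, 103, 95.5, 89.5 and 94.5 CPM, with a log2 fold change of 0.32 (SE 0.0410, adjusted p = 2.78e-06 by edgeR).

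Arnt, the partner gene expressed in most cell types, rose less in absolute level. In control mice it went from 20, 19.8, 18.8, 19.1 and 19.6 CPM to 24.2, 23.6, 21.7, 22.6 and 23.2 CPM, with no overlap and a log2 fold change of 0.25 (SE 0.0479, adjusted p = 0.000429 by edgeR). In cKO mice the contralateral libraries held 20.3, 20.2, 22.3, 19.3 and 20.1 CPM and the ipsilateral ones 22.3, 23.9, 23.7, 20.8 and 25.2 CPM. All 5 mice rose, but the groups overlapped, because H95 was high on the contralateral side and H99 low on the ipsilateral side. The log2 fold change there was 0.18 (SE 0.0478, adjusted p = 0.00549 by edgeR). Across the 20 libraries, the deviations of Arnt from its group means went with those of the fibroblast marker score (Pearson r 0.595, Spearman rho 0.615, n = 20 libraries from 10 mice), while for Ahr the same r was -0.162 and for Arnt2 -0.262. Arnt was called in both genotypes with that score as a covariate, as in all 19 alternatives. Over these its log2 fold change ran from 0.20 to 0.27 in control mice (adjusted p up to 0.00272). In cKO mice it ran from 0.15 to 0.24 (adjusted p up to 0.0432). The part of fibroblasts in the change of Arnt was not tested.

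The balance of the partners was described by their ratio, which overlapped between sides. The ratio of Arnt2 to Arnt per kilobase was 4.16 ± 0.199 in control contralateral, 4.26 ± 0.0944 in control ipsilateral, 3.90 ± 0.272 in cKO contralateral and 4.30 ± 0.248 in cKO ipsilateral libraries (SD, n = 5). The supply of partners relative to receptor, taken as Arnt plus Arnt2 over Ahr per kilobase, was 3.20 ± 0.229 contralaterally and 2.73 ± 0.197 ipsilaterally in control mice. It was 3.78 ± 0.196 and 2.97 ± 0.209 in cKO mice. The lowest ratio of a library was 2.41. The ratio depends on the length used: with the length implied by the deposited FPKM, close to the whole gene span, it was 1.20 and 1.02 in control and 1.44 and 1.11 in cKO mice, and 1 control ipsilateral library was below 1 (0.90). These ratios are descriptions of mRNA and were not tested.

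Among the chaperone genes, Hsp90ab1 encodes the constitutive HSP90 beta. Its contralateral control libraries held 1557, 1619, 1546, 1461 and 1646 CPM and its ipsilateral ones 1636, 1603, 1576, 1634 and 1449.5 CPM. The ranges overlapped and 3 of 5 mice were higher on the ipsilateral side. For control mice the log2 fold change was 0.01 (95% interval -0.08 to 0.11, adjusted p = 0.874 by edgeR). In cKO mice, libraries spanned 1416 to 1648 CPM contralaterally and 1470.5 to 1628 CPM ipsilaterally, and the log2 fold change was 0.02 (95% interval -0.08 to 0.11, adjusted p = 0.842 by edgeR). Each interval leaves room for a change of up to 0.11 on the log2 scale in either genotype.

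Ptges3, the gene of the co-chaperone p23, which also has prostaglandin E synthase activity, rose by 8.03% in control and by 6.25% in cKO mice. Control values were 131, 129, 133, 126 and 125 CPM contralaterally and 141, 135, 140, 144 and 135 CPM ipsilaterally, a small but complete separation, with a log2 fold change of 0.11 (SE 0.0263, adjusted p = 0.00247 by edgeR). In cKO mice it went from 127, 129, 131, 129 and 121 CPM to 138, 134, 136, 138 and 133 CPM, a log2 fold change of 0.09 (SE 0.0263, adjusted p = 0.0142 by edgeR). That cKO call was lost without mouse H61 (log2 fold change 0.08, adjusted p = 0.0566 by edgeR). A pseudogene copy, Ptges3-ps, was counted separately with 1296 to 2095 counts per library, and reads may have been split between the copies.

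Of the feedback repressors, Tiparp rose in both genotypes and Ahrr fell in cKO mice. Tiparp, also named Parp7, held 40.4, 38.2, 38.5, 39.9 and 42.1 CPM in contralateral and 46.9, 42.5, 44.5, 45.4 and 43.5 CPM in ipsilateral control libraries, a log2 fold change of 0.16 (SE 0.0378, adjusted p = 0.00234 by edgeR). In cKO mice it went from 38.0, 38.5, 39.9, 38.9 and 36.7 CPM to 43.9, 46.2, 47.2, 41.6 and 43.5 CPM, a log2 fold change of 0.21 (SE 0.0378, adjusted p = 0.000172 by edgeR). The sides did not overlap in either genotype.

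Ahrr encodes a bHLH-PAS protein that competes with AhR for ARNT. In cKO mice it fell from 4.11, 3.80, 3.31, 3.55 and 3.75 CPM to 3.24, 3.30, 2.71, 3.0 and 3.08 CPM. Each of the 5 mice was lower on the ipsilateral side, and the groups, with 3.30 CPM as the highest ipsilateral and 3.31 CPM as the lowest contralateral value, were only just apart. The log2 fold change was -0.27 (SE 0.0786, adjusted p = 0.0108 by edgeR). In control mice the contralateral libraries held 3.53, 3.51, 3.59, 3.59 and 3.37 CPM and the ipsilateral ones 3.57, 3.28, 2.89, 2.59 and 3.05 CPM. There 4 of 5 mice were lower, mouse H62 was not, and the groups overlapped. The log2 fold change of -0.20 (SE 0.0788, adjusted p = 0.0685 by edgeR) did not pass the threshold. It passed in the fit with mouse as a replicate block (-0.20, adjusted p = 0.0484) and without mouse H62 (-0.25, adjusted p = 0.0296), both by edgeR, in a range of adjusted p from 0.0296 to 0.319 over 19 alternatives. As a description, the ratio of Ahr to Ahrr per kilobase was 10.6 ± 0.912 contralaterally and 17.4 ± 3.03 ipsilaterally in control mice, and 8.47 ± 0.744 and 16.0 ± 1.43 in cKO mice (SD, n = 5), with no overlap between sides in either genotype.

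The cKO was compared with control on each side to see how the targeted gene and its complex stood. No member was called on either side. On the contralateral side, where 0.0735% of all genes (21) were called, Ahr was the only one of the 7 genes whose groups did not overlap (1.52% of all genes), with 19.5 to 21.0 CPM in cKO and 21.3 to 27.2 CPM in control libraries. The log2 fold change was -0.25 (SE 0.0661, 95% interval -0.39 to -0.11, adjusted p = 0.103 by edgeR). It was called by DESeq2 (-0.24, adjusted p = 0.0216) and by edgeR without mouse H99 (-0.25, adjusted p = 0.0353), in a range of adjusted p from 0.0216 to 0.892 over 18 alternatives. The highest of these came with the fibroblast marker score as a covariate (-0.21). Markers of several cell types lay above zero in this comparison, with 0 called in these lists: 6 of 6 for fibroblasts (median log2 fold change 0.81), 8 of 8 for macrophages (0.24), 6 of 6 for neutrophils (0.72), 6 of 6 for endothelium (0.14), 5 of 5 for erythroid cells (0.47) and 6 of 6 for muscle (1.37). The muscle sums were uneven, with a median of 17.2 CPM (5.42 to 1767) in cKO and 71.6 CPM (9.03 to 371) in control contralateral libraries, so the median library was lower in cKO. Sensory neuron markers were above zero in 1 of 12 cases (median -0.06), lymphocyte markers in 1 of 8 (-0.45), Schwann cell markers in 4 of 8 (-0.03) and satellite glia markers in 4 of 6 (0.07), with 0 called. Of the 6 injury check genes, Jun was called lower in cKO mice (-0.21, adjusted p = 0.0278 by edgeR), and the others, among them Atf3 (-0.30, adjusted p = 0.12) and Sox11 (-0.19, adjusted p = 0.177), were not called. The part of the marker lists in this comparison was not tested. The cKO contralateral libraries of H61, H64, H95, H99 and H100 held 845, 1795, 1661, 783 and 1360.2 CPM of fibroblast markers. Without H99, 3326 genes were called in place of 21, and without H61, whose sum was also low, 174.

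On the ipsilateral side, where 0.00700% of all genes (2) were called, Ahr spanned 28.9 to 36.8 CPM in cKO and 30.2 to 38.1 CPM in control libraries. These ranges overlapped, as did those of the other 6 genes (0.599% of all genes had ranges apart), and the log2 fold change of Ahr was -0.11 (95% interval -0.24 to 0.03, adjusted p = 1.0 by edgeR). Counts over all exons of Ahr do not measure the deletion itself: the labels do not name the floxed exon, transcripts that lack it are still counted, and cells without Cre keep the gene.

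For the other 6 genes, the 95% intervals give the uncertainty of the genotype difference in mRNA of whole ganglia in this fit. They do not bound a change within the cells that carried Cre. On the contralateral side Arnt2 differed by -0.03 on the log2 scale (interval -0.11 to 0.06), Ptges3 by -0.01 (-0.07 to 0.04), Hsp90ab1 by -0.06 (-0.15 to 0.04), Tiparp by -0.05 (-0.13 to 0.03), Arnt by 0.07 (-0.03 to 0.17) and Ahrr by 0.07 (-0.09 to 0.24). On the ipsilateral side the log2 differences of these genes lay between -0.06 for Hsp90ab1 and 0.02 for Arnt2. The widest interval there was that of Ahrr, -0.17 to 0.16, the gene with the fewest counts.

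**Figure D3:**
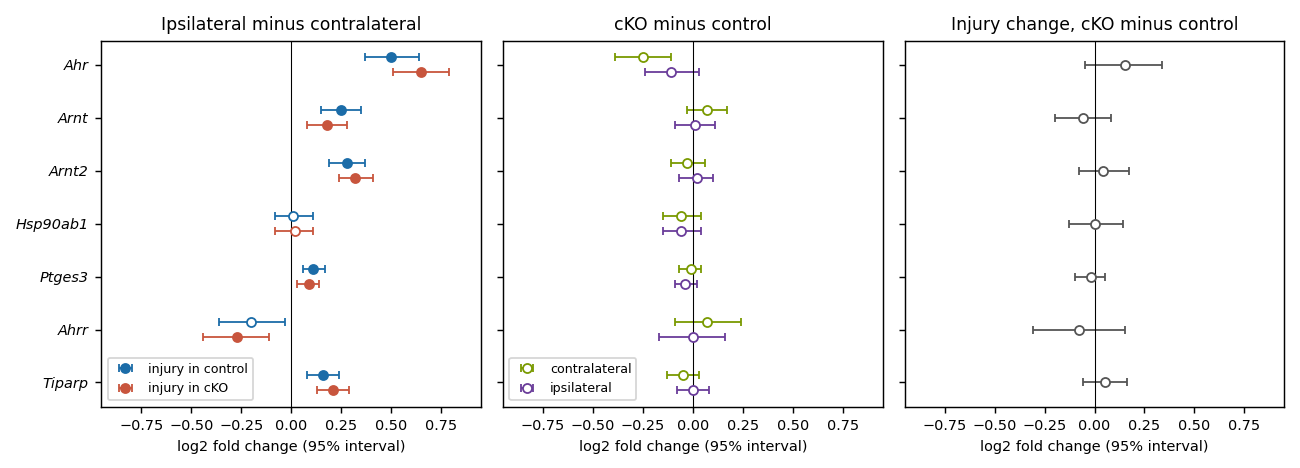
Log2 fold changes of the 7 genes with their 95% intervals in the 5 comparisons: ipsilateral minus contralateral by genotype (left), cKO minus control by side (middle) and the difference of the injury changes between genotypes (right). Filled points passed an adjusted p of 0.05. Ahr, Arnt, Arnt2, Ptges3 and Tiparp are filled on the right of zero in both genotypes on the left panel, and no point is filled in the other panels.

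The injury response of the 7 genes did not differ detectably between genotypes. In the interaction, 0 members and 0% of all genes were called by edgeR (2799 genes had an unadjusted p under 0.05, and DESeq2 called 11). The difference for Ahr, cKO minus control, was 0.15 on the log2 scale (95% interval -0.05 to 0.34, adjusted p = 0.60 by edgeR). Per mouse, the log2 difference of ipsilateral and contralateral Ahr was 0.68, 0.53, 0.34, 0.48 and 0.49 in control mice and 0.62, 0.81, 0.62, 0.60 and 0.57 in cKO mice. The genotypes overlapped. Their means of 0.50 ± 0.119 and 0.64 ± 0.0957 (SD, n = 5) gave a two-sided exact permutation p of 0.0635, not adjusted for the 7 such tests, where 0.00794 is the smallest that 5 against 5 mice allow. The other 6 genes had exact permutation p-values of 0.198 (Arnt) to 0.992 (Hsp90ab1). Their interaction intervals lay within -0.20 to 0.17, apart from Ahrr, whose interval ran from -0.31 to 0.15. Markers of fibroblasts (median -0.78), satellite glia (-0.16), macrophages (-0.33), neutrophils (-0.71), endothelium (-0.29), erythroid cells (-0.44) and muscle (-3.88, with the uneven sums given above) were above zero in 0 cases in the interaction, and 0 of them were called. Sensory neuron markers were above zero in 8 of 12 cases (0.04), lymphocyte markers in 4 of 8 (0.02) and Schwann cell markers in 1 of 8 (-0.08), with 0 called.

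The other genes of the AhR pathway, taken from fixed lists, showed where the 7 sit. Of 12 genes of the cytosolic complex and of HSP90 co-chaperones, 1 was called higher and 1 lower after injury in control mice. In cKO mice 1 was called higher and 2 lower, and the medians were -0.01 and 0.00. Over all tested genes, 29.9% were called in control and 31.3% in cKO mice. Src, a kinase held in the AhR complex, rose (log2 fold change 0.23 in control, 0.36 in cKO mice). In cKO mice Fkbp4, an HSP90 co-chaperone of steroid receptors, fell (-0.12). Hsp90aa1, the inducible HSP90 gene, had log2 fold changes of 0.12 in both genotypes that missed the threshold (adjusted p = 0.0559 and 0.0537 by edgeR).

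Of the other bHLH-PAS factors, relatives of AhR and ARNT, 9 of 12 passed the filter, and Sim1, Sim2 and Npas4 did not. In control mice 2 were called higher and 1 lower, and in cKO mice 3 higher and 0 lower. That is near the share over all genes, 29.9% called in control and 31.3% in cKO mice. Hif1a, the hypoxia-inducible factor subunit that also pairs with ARNT, rose with log2 fold changes of 0.23 (control, 103 to 121 CPM) and 0.25 (cKO, 101 to 121 CPM). Npas3, a neuronal family member, rose from low levels (0.36 and 0.33), Npas2, a relative of Clock, fell in control mice (-0.33), and Clock was called higher in cKO mice (0.12). Epas1, which encodes HIF2 alpha, had values of 0.15 (adjusted p = 0.0531) and 0.04 (adjusted p = 0.627), and the clock gene Bmal1, an ARNT relative, -0.02 and 0.02, none of them called by edgeR.

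Coregulators of nuclear AhR numbered 14 tested genes, with 1 called higher and 2 lower in control mice and 4 higher and 1 lower in cKO mice. The shares over all genes were 29.9% called in control and 31.3% in cKO mice. Nrip1, which encodes the corepressor RIP140, doubled from 73.8 to 148 CPM in control mice (log2 fold change 1.00) and rose from 70.7 to 148 CPM in cKO mice (1.07). Hdac5, a class II histone deacetylase, fell (-0.19 and -0.21), as did its relative Hdac4 in control mice (-0.17). In cKO mice the chromatin remodeller gene Smarca4 (0.15) and the ubiquitin ligase adaptor gene Ddb1 (0.18) were also called higher.

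Among 12 AhR target genes 11 were tested, all but Cyp1a2, and 6 were called higher and 0 lower in control mice, 5 higher and 2 lower in cKO mice. Of all genes, 29.9% were called in control mice (13.8% higher, 16.0% lower) and 31.3% in cKO mice (16.2% higher, 15.1% lower). The list medians were 0.29 and 0.28, against 0.00 and -0.03 over all genes. Cyp1b1, the xenobiotic and estrogen hydroxylase, rose by 0.78 on the log2 scale (control, 50.9 to 87.6 CPM) and 0.52 (cKO, 63.7 to 91.6 CPM). Socs2, Slc7a5 and Nfe2l2, a cytokine signalling suppressor, an amino acid transporter and the antioxidant regulator NRF2, rose in both genotypes by 0.31 to 0.70 on the log2 scale. Ugt1a6b, a glucuronosyltransferase gene that shares exons with its cluster neighbours and is therefore uncertain, was called higher in control mice (0.29). In cKO mice the aldehyde dehydrogenase gene Aldh3a1 (-1.40, from 1.81 to 0.688 CPM, with overlapping groups) and the quinone reductase gene Nqo1 (-0.17) fell.

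Of 11 PARP and macrodomain relatives of Tiparp, 3 were called higher and 0 lower in each genotype. This is near the share over all genes, of which 29.9% were called in control and 31.3% in cKO mice. Zc3hav1, which encodes the zinc finger antiviral protein, had log2 fold changes of 0.86 and 0.89, the transferase gene Parp16 0.57 and 0.59, and its relative Parp8 0.15 and 0.26. Of the kynurenine pathway, which makes endogenous AhR ligands from tryptophan, 9 of 10 genes were tested (not Ido1). In control mice 0 were called higher and 3 lower, and in cKO mice 1 higher and 2 lower. These counts too are near the shares of all genes called (29.9% and 31.3%). Kyat1 (-0.32 and -0.17) and Kyat3 (-0.11 and -0.16), kynurenine aminotransferases, fell in both genotypes, Aadat, another such enzyme with a group mean of 0.558 CPM on the contralateral side, fell in control mice (-0.78), and Il4i1, an amino acid oxidase that yields AhR agonists, was higher in cKO mice (0.19). No gene of these 6 lists was called between genotypes on either side or in the interaction.

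**Figure D4:**
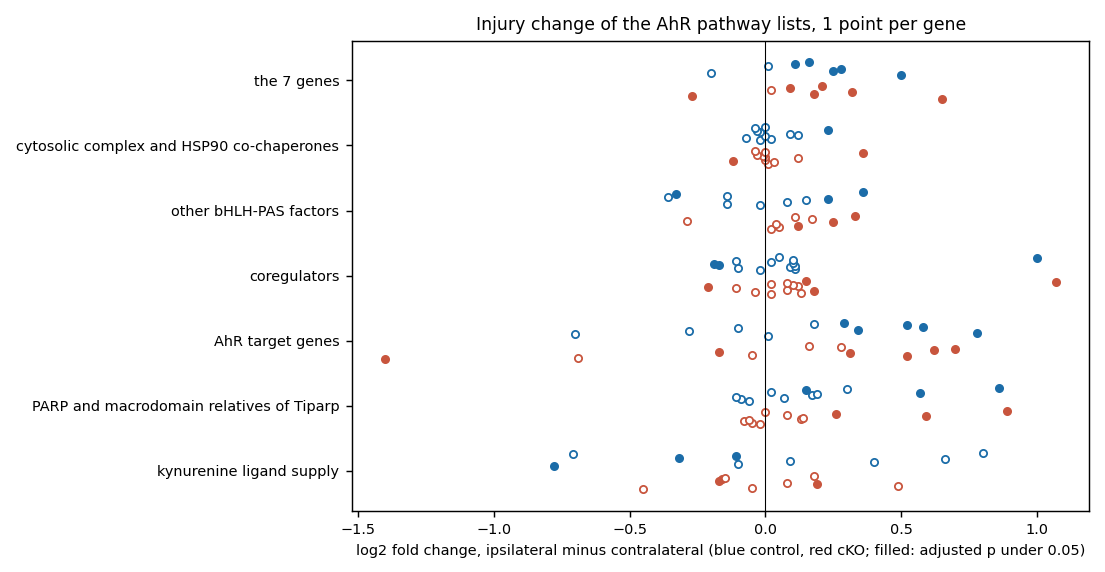
Log2 fold change from contralateral to ipsilateral ganglia, 1 point per gene shown, for the 7 genes and the 6 AhR pathway lists (blue control, red cKO, filled where the adjusted p was under 0.05). List genes that are not reported here are not drawn. Most points lie within 1 log2 unit of zero, and Nrip1, at 1.00 and 1.07, stands at the right.

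The genes whose library-to-library deviations were most like those of a member were found among 11913 genes that averaged 5 CPM or more over the 20 libraries. For Ahr these were Sema4c, a semaphorin gene (Pearson r 0.895, Spearman rho 0.920), Rps6ka1, a kinase gene (0.836 and 0.833) and Slc27a1, a fatty acid transporter gene (0.808 and 0.829). Their injury log2 fold changes in control and cKO mice were 0.33 and 0.43 (Sema4c), 0.91 and 0.87 (Rps6ka1) and -0.08 and -0.11 (Slc27a1). For Arnt2 they were Arhgef40 (0.875 and 0.835), Git1 (0.808 and 0.771) and Ehbp1 (0.802 and 0.788), with injury log2 fold changes of 0.19 to 0.50. For Tiparp they were Ptpn12 (0.775 and 0.779), Dis3 (0.767 and 0.773) and Stk4 (0.726 and 0.737), with injury log2 fold changes of 0.05 to 0.37. Among the members themselves the highest r was 0.524 between Ahr and Arnt2, followed by 0.429 between Arnt and Arnt2 and 0.422 between Arnt and Tiparp. These correlations are descriptions over libraries that share mice, dissections and sequencing depth.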

How the data were processed

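The count table was deposited by the authors as whole-number exonic counts per gene, without normalization. The submitters' processing notes name HISAT2, Picard, mm10 and mm39 without their role; the counting program, annotation and strand setting are not given in the sources used here. The deposited FPKM equalled CPM divided by a length close to the whole gene span, introns included, so lengths here are merged exons of GENCODE release M21, which also gave symbols for 51487 of 78258 identifiers. Exons of Ahr, Arnt2 and Tiparp overlap opposite-strand genes (Gm48236, Gm30873 and 4931440P22Rik) with at most 346 counts per library.

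Counts were fitted in R 4.3.3 with edgeR 4.0.16 (TMM, filterByExpr with a minimum count of 10 and total of 15, robust quasi-likelihood F-test), all 20 libraries in 1 fit with a mean per group, with Benjamini-Hochberg adjustment over 28564 genes. The prior count for log2 CPM was 2. Both libraries of a mouse are paired by its number; their deviations correlated with a median r of 0.186 (-0.0546 to 0.361, over 0.1 in 7 of 10 mice), and the mouse block was an alternative, beside DESeq2 1.42.0, limma-voom (limma 3.58.1), RLE factors, other filters, covariates, only the libraries compared, and leaving out each mouse. The members and lists were chosen with earlier results of these data known. Genes named were the 7, the highest and lowest called fold changes per list with at least 1 CPM, further genes chosen in advance (Hsp90aa1, Hif1a, Epas1, Bmal1 and Cyp1b1), and the 3 most alike; other list genes were named after their values were seen. Some genes counted in the lists are not reported here. Reads had no molecular identifiers.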

Additional observations from a re-analysis of the deposited data

Results flagged for a closer look

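The injury response of Ahr in cKO mice had 1 mouse apart from the others: H64 rose by 0.81 on the log2 scale against 0.57 to 0.62 in the other 4 cKO mice. The gap between it and the next mouse was 0.761 of the whole range of the group, above the 95% critical value of 0.71 for 5 values (Dixon's ratio). This was 1 of 42 groups of values tested, where chance gives about 2.1. The same mouse held the highest ipsilateral Ahr level among cKO mice, 36.8 CPM, and the highest contralateral sum of fibroblast markers, 1795 CPM. Its contralateral library was the shallowest of all 20 (76.2 M counts) and its ipsilateral library the deepest (119 M). The part of the fibroblast markers and of depth in the response was not tested.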

How the results depend on the processing

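Of 644 fold changes of the 7 genes under the alternatives, 594 kept their direction and their side of the threshold, 6 gained a call, 1 lost it and 43 small uncalled values changed sign. The replicate block with mouse moved no call but that of Ahrr in control mice, with 8559 genes called in control and 9015 in cKO mice and 0 in the interaction. Ahrr in control mice was also called by limma-voom (adjusted p = 0.0344) and with mouse number range as a covariate (0.0326).

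Without 1 mouse, the number of genes called between genotypes on the contralateral side ran from 4 (without H95) to 3326 (without H99), and the number in the interaction from 0 to 43 (without H99), while 0 or 1 of the 7 genes was called contralaterally, that 1 being Ahr. The contralateral number was also 1041 with DESeq2 (1 of the 7, Ahr), 50 with no filter, 45 with a mean of at least 1 CPM, 3 with the fibroblast marker score and 2 with only the libraries compared, and DESeq2 called 11 genes in the interaction. The cause was not tested.

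The sign changes lay close to zero. With the fibroblast marker score, Hsp90ab1 was -0.0016 for injury in cKO mice and -0.03 in the interaction, Arnt was -0.02 and Arnt2 0.01 between genotypes contralaterally, and Arnt was 0.04 in the interaction. With only the libraries compared, Ptges3 was 0.0017 contralaterally. Between genotypes on the ipsilateral side, Ahrr was 0.0004 with DESeq2, 0.0023 with limma-voom and 0.02 with mouse number range, and Tiparp was 0.00056 with DESeq2 and 9.7e-05 with RLE factors. The interaction of Hsp90ab1 was -0.0025 with DESeq2 and with RLE factors and -0.0034 with a mean of at least 1 CPM, and its difference per mouse was -0.0013 with RLE factors. Leaving out 1 mouse, Hsp90ab1 ran from -0.01 to 0.08 (injury in control), -0.01 to 0.05 (injury in cKO) and -0.06 to 0.03 (interaction), Arnt2 from -0.04 to 0.00083 (contralateral), -0.01 to 0.04 (ipsilateral) and -0.01 to 0.08 (interaction), and Ptges3 from -0.02 to 0.01 (contralateral). On the ipsilateral side Ahrr ran from -0.06 to 0.06, Arnt from -0.02 to 0.05 and Tiparp from -0.02 to 0.02. By the length implied by the deposited FPKM, Tiparp ranked 3, Ahr 4 and Arnt2 5 in level, and the partner to receptor ratio fell to means of 1.02 to 1.44 (an alternative chosen after seeing the data). Ahrr, with the fewest counts, had the largest SE.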
